A study of Mus musculus with 23 samples.

Results

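The genes described here are 10 genes of fatty acid and triglyceride synthesis, namely Srebf1, Thrsp, Acly, Me1, Acaca, Fasn, Elovl6, Scd1, Scd2 and Dgat2. They were matched by symbol among the 55573 gene IDs of the count matrix, and all 10 were among the 13049 genes that passed the filter on low counts. Their levels are given in each mouse beside the level of Plin1, a coat protein of the fat droplet in adipocytes that served as a gauge of fat in the sample. RNA was sequenced from the quadriceps muscle of C57BL/6J mice of 8 to 10 weeks, with 6 vehicle-treated males, 6 corticosterone-treated males, 6 vehicle-treated females and 5 corticosterone-treated females. Treated mice carried a slow-release implant holding 50 mg of corticosterone, the main glucocorticoid of mice, mixed with 50 mg of cholesterol. The implant of vehicle-treated mice held 100 mg of cholesterol alone. Tissue was taken after 14 days of treatment, and all mice were fasted for 5 h before that. Mice are named by sex and number, odd numbers being vehicle-treated and even numbers corticosterone-treated.

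Fatty acid synthesis makes fat from carbohydrate. Cytosolic citrate is split to acetyl-CoA, which is carboxylated and joined to palmitate, and palmitate is then elongated, desaturated and stored as triglyceride. SREBP-1c, a product of Srebf1, switches on most of these enzymes in response to insulin. The pathway is most active in liver and in adipocytes, while muscle fibers express it at a lower level. A piece of quadriceps can hold fat cells between its fibers, so that RNA of both cell types is read together.

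In females, 6 of the 10 genes were significantly higher with corticosterone, by 6.13-fold to 17.0-fold, against 7.40% of all genes tested, but this rested on 3 of the 5 treated mice, F2, F6 and F10. The count was 0 with females fitted alone and 2 with Plin1 as a covariate. In these 3 mice, every one of the 10 genes lay above all vehicle-treated females. The share of all genes that did so in these 3 mice was not computed. The other 2 treated females, F4 and F8, were within or just below the vehicle range for the 10 genes. For Scd1, F4 was within this range only through F5, the highest vehicle-treated female. Males gave no significant change in the model of all 4 groups. For Thrsp, Acly, Acaca and Elovl6, 5 of the 6 treated males lay above all vehicle-treated males. All 6 did so for 10.8% of all genes, and the share with 5 of 6 was not computed. Plin1 stood high in the same 3 females and did not differ significantly between treated and vehicle-treated males.

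Depth was even, with 20904150 to 21984477 read pairs counted on genes in each library. Levels are CPM, the counts of a gene after all libraries were brought to the same total and corrected by TMM factors, and fold changes come from edgeR with adjusted p-values over all genes tested. Each library came from 1 mouse, and p-values measure the spread between these mice. Several libraries stood apart in markers of other cell types. The summed level of 11 adipocyte markers was 4382 CPM in F2, 7888 CPM in F6 and 3905 CPM in F10, against 1517 CPM in F4, 789 CPM in F8 and 532 to 2948 CPM in vehicle-treated females. In males it was 402 to 1323 CPM with vehicle and 1003 to 1583 CPM with corticosterone. Of these sums, Plin4 alone made up 182 to 305 CPM in vehicle-treated males and 509 to 757 CPM in treated males. In treated females Plin4 made up 516 CPM of the sum in F8, 401 CPM in F4 and 538 to 849 CPM in F2, F6 and F10. Vehicle-treated females had 233 to 343 CPM of it. None of the 11 adipocyte markers was at 0 in a whole group. The summed level of 10 hepatocyte markers was highest in F10 with 2890 CPM, followed by M8 with 2695 CPM, F6 with 2076 CPM, M9 with 1608 CPM and M12 with 1573 CPM, against 50.1 to 454 CPM in the other mice. Epithelial keratin transcripts were highest in F6, where Krt8 was at 18.8 CPM and Krt18 at 19.2 CPM. The brown adipocyte gene Ucp1 was at 57.1 CPM in the vehicle-treated female F5 and at most 6.59 CPM elsewhere. The muscle markers were abundant in all mice, but their summed level was lowest in F10 with 70590 CPM and F6 with 87120 CPM. In the other mice it was 110200 to 192600 CPM. The part of these markers in the results that follow was not tested, except where Plin1 or marker levels entered a model. In bulk tissue, fewer cells of a type and less RNA per cell cannot be told apart.

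For 7 members, 10 promoter windows were found in RefSeq for build GRCm38.p6, from 250 bases before to 50 bases after a transcript start, since Srebf1 had 3 starts and Me1 had 2. The window of Acaca lies inside the gene as GENCODE gives it. The windows of Thrsp, Acly and Fasn are shown as examples that hold the motifs marked, and that of Elovl6 as one that holds none. Across the 23 mice, Pearson r was 0.95 to 0.98 between pairs of Thrsp, Acly and Fasn, and it was 0.98 between Elovl6 and Acaca, whose windows hold neither motif. Capitals mark matches on either strand to CCAAT, the box bound by NF-Y, and to GGGCGG, the core of the GC box. The Thrsp window is chr7:97417501-97417800 on the minus strand, that of Acly is chr11:100527951-100528250 on the minus strand, that of Fasn is chr11:120824498-120824797 on the minus strand, and that of Elovl6 is chr3:129532136-129532435 on the plus strand.
Thrsp: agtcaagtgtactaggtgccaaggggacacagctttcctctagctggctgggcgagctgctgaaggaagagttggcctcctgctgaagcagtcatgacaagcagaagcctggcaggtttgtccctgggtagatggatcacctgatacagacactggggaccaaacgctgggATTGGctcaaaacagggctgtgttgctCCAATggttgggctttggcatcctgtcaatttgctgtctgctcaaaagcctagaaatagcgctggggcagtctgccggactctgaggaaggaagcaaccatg
Acly: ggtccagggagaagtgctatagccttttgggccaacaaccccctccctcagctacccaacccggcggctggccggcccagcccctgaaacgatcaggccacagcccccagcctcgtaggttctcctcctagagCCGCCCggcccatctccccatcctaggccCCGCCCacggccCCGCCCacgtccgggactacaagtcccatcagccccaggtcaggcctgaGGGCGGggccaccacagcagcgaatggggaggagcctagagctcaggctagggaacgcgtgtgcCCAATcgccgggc
Fasn: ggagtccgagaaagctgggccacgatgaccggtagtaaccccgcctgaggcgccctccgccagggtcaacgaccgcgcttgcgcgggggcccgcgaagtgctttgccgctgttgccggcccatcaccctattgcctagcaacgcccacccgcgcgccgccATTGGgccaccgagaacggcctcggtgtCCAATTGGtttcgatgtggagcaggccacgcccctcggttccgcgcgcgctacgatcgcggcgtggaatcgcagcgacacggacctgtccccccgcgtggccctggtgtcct
Elovl6: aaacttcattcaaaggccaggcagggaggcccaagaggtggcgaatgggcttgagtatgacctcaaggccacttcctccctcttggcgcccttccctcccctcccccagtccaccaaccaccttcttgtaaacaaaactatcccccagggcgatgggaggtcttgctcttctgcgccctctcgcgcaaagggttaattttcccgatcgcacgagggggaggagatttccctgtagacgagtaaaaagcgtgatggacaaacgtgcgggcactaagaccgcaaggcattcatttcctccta
Thrsp had 2 matches to CCAAT, Fasn had 3, of which 2 overlapped on opposite strands, and Acly had 1 match to CCAAT and 4 to GGGCGG, while Elovl6 had none to either. Of all 32851 windows of this length, 37.4% held CCAAT and 35.7% held GGGCGG on either strand, so that both are common. No member's window held the E-box CACGTG, present in 7.15% of all windows, or the sterol response element TCACNCCAC, present in 1.24%. The glucocorticoid receptor half-site TGTTCT was found in the Acaca window alone, against 19.0% of all windows. These matches describe letters within the windows only.

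Scd1 had the highest median per length in every group, although Me1 was above it in 3 of the 6 vehicle-treated females. Its median was 115 CPM per kilobase of exon in vehicle-treated males and 67.5 in vehicle-treated females, followed by Me1 with 72.2 and 66.0 CPM per kilobase. Elovl6 was the least abundant in the vehicle-treated groups, with medians of 0.824 and 0.900 CPM per kilobase, and Acaca was next to it. Me1 lay above the range of the next member, Dgat2, in both vehicle-treated groups. Between these ends, the ranges of Dgat2, Thrsp, Fasn, Srebf1, Scd2 and Acly overlapped their neighbours in both vehicle-treated groups. With corticosterone the median of Scd1 was 285 CPM per kilobase in males and 3108 in females. The order below Scd1 changed in treated females, where Thrsp and Fasn came next with medians of 273 and 221 CPM per kilobase, and Srebf1 was last with 14.7. Scd1 alone took 2.06% of all gene counts in F6, 1.83% in F10 and 1.68% in F2, against at most 0.243% in the other 20 mice. Together, the 10 genes made up 2.47% to 3.09% of the gene counts in those 3 mice and 0.0589% to 0.437% in the others.

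**Figure D1:**
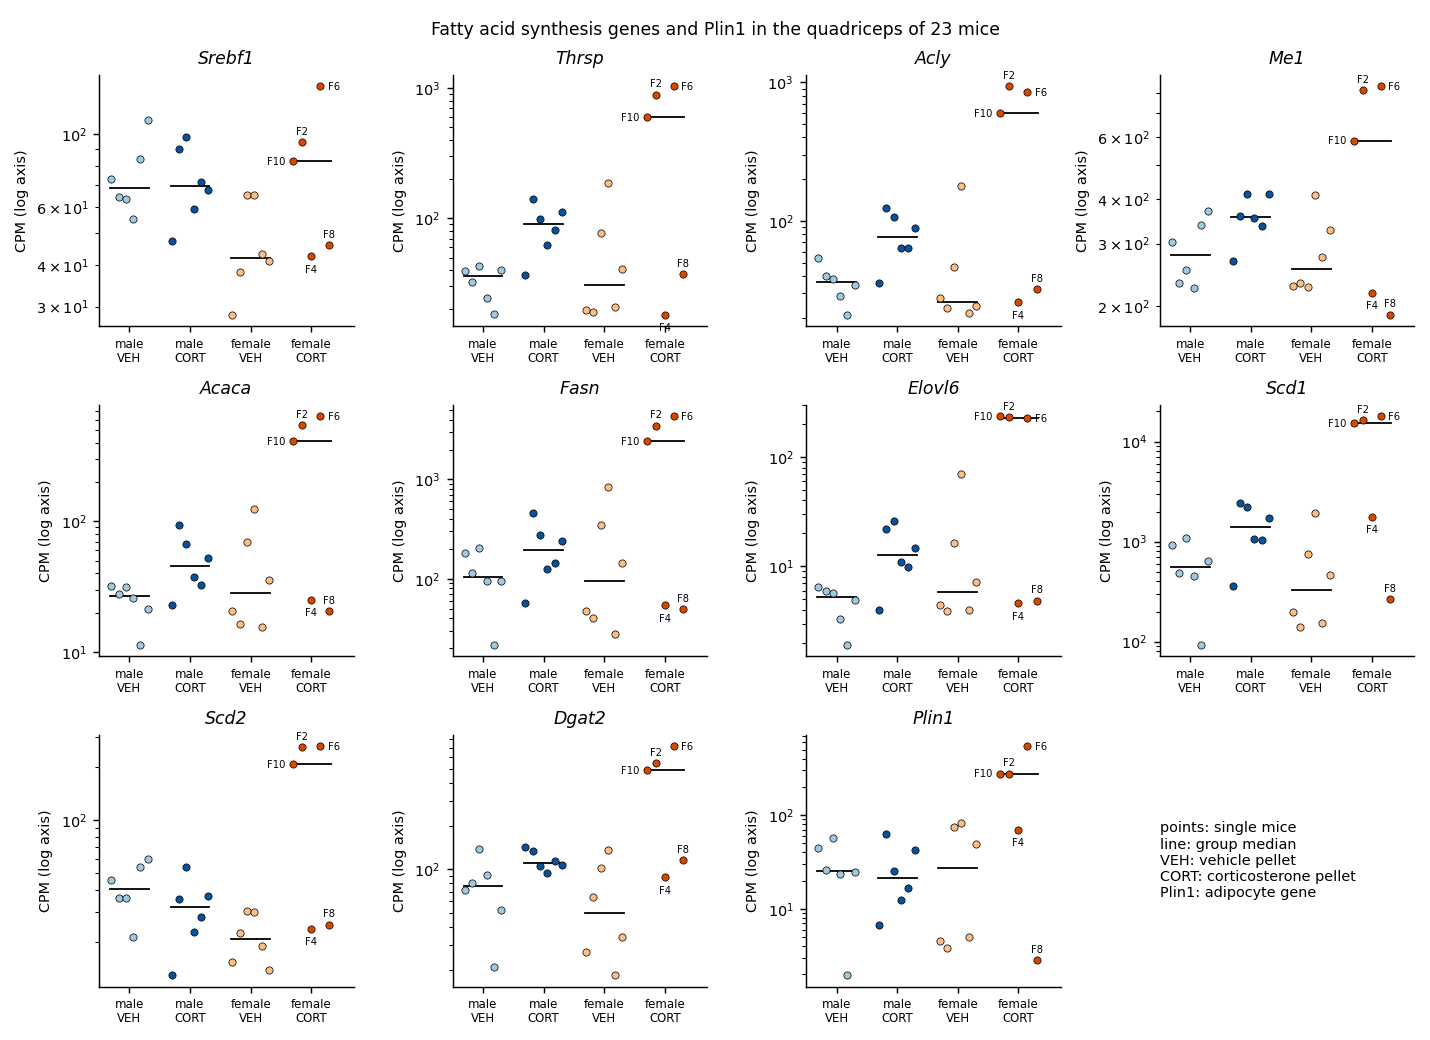
Level of the 10 members and of Plin1 in each mouse, in CPM on log axes, with 1 panel per gene, 1 point per mouse, the 4 groups side by side and a line at the group median. The treated females F2, F6 and F10 lie above all other females in each panel, for Scd1 at 15200 to 17960 CPM, while F4 and F8 lie near the vehicle-treated females.

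Srebf1 and Thrsp act in regulation of the pathway. Srebf1 encodes SREBP-1 and lies at chr11:60199089-60222581 on the minus strand (GRCm38). In males its level was 55.0 to 110 CPM (median 68.7) with vehicle and 47.3 to 98.1 CPM (median 69.5) with corticosterone, and the groups overlapped. Its log2 fold change was -0.05 ± 0.26 (SE, adjusted p = 0.89), and its sign turned to 0.09 without M9 and to 0.04 without M10. Vehicle-treated females had 28.4 to 65.3 CPM (median 42.2). F2, F6 and F10 of the treated females were at 94.4, 139 and 82.7 CPM, while F4 and F8 were at 42.5 and 46.0 CPM. The log2 fold change of 0.79 ± 0.28 missed the threshold of 0.01 (adjusted p = 0.0389), and Srebf1 was the member with the smallest difference in females. The counts per gene do not separate the transcripts of SREBP-1a and SREBP-1c.

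Thrsp, also known as Spot 14, is a small protein of lipogenic tissues that follows thyroid hormone and carbohydrate intake, and lies at chr7:97412938-97417730 on the minus strand. Vehicle-treated males had 18.5 to 43.2 CPM (median 35.9) and treated males 37.0 to 141 CPM (median 90.1). All treated males except M10, at 37.0 CPM, were above every vehicle-treated male. The difference of 1.42 ± 0.71 on the log2 scale was not significant in the model of all groups (adjusted p = 0.117). Vehicle-treated females ranged from 19.1 to 187 CPM (median 31.1), with F5 highest. With corticosterone, F2 reached 891, F6 1038 and F10 597 CPM, whereas F4 had 18.2 and F8 37.3 CPM. Thus F4 was the lowest of all females and F6 the highest. The female log2 fold change was 3.08 ± 0.77 (adjusted p = 0.00561). It missed the threshold when any one of F1, F7, F9, F11, F2, F6 and F10 was left out, reaching an adjusted p of 0.0224 without F6.

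Acly and Me1 supply the building blocks. Acly, at chr11:100476353-100528000 on the minus strand, encodes ATP citrate lyase, which makes cytosolic acetyl-CoA. It was at 21.0 to 54.2 CPM (median 36.3) in vehicle-treated males and at 35.7 to 123 CPM (median 76.3) in treated males. As for Thrsp, only M10 of the treated males fell into the vehicle range, and the log2 fold change of 1.16 ± 0.68 was not significant (adjusted p = 0.183). Vehicle-treated females had 21.6 to 177 CPM (median 26.1), where F5 was highest and the next mouse had 46.8 CPM. The treated females F4 and F8 had 25.8 and 32.1 CPM, and F2, F6 and F10 had 939, 850 and 596 CPM. The difference in females was significant at 3.19 ± 0.74 (adjusted p = 0.00351), and was lost without F7, F2 or F6.

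Me1, at chr9:86581371-86695953 on the minus strand, encodes cytosolic malic enzyme, a source of NADPH. Its level varied little among vehicle-treated mice, with 225 to 370 CPM (median 278) in males and 227 to 412 CPM (median 254) in females. Treated males had 267 to 415 CPM (median 356), a log2 difference of 0.32 ± 0.28 that was within the spread (adjusted p = 0.393). F2, F6 and F10 of the treated females were at 812, 835 and 585 CPM, while F4 and F8 were at 217 and 189 CPM. Here F4 and F8 lay below all vehicle-treated females. The log2 fold change in females was 0.90 ± 0.30 (adjusted p = 0.0299), which missed the threshold but passed it without F4 or F8. Of the 100-base windows in Me1 transcripts, 12.3% also occur in the unnamed gene models Gm7049 and Gm7329, so that part of its reads may be unassigned.

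Acaca and Fasn build the carbon chain. Acaca, at chr11:84129672-84401651 on the plus strand, encodes acetyl-CoA carboxylase 1, which makes malonyl-CoA in the rate-limiting step. In males its level was 11.3 to 31.9 CPM (median 26.8) with vehicle and 22.7 to 93.3 CPM (median 45.1) with corticosterone. Again 5 of 6 treated males exceeded all vehicle-treated males, with a log2 fold change of 1.03 ± 0.67 (adjusted p = 0.229). Vehicle-treated females had 15.5 to 125 CPM (median 28.0). With corticosterone, F2 reached 541, F6 637 and F10 409 CPM, whereas F4 had 24.9 and F8 20.6 CPM. At 2.79 ± 0.72 the female log2 fold change was significant (adjusted p = 0.00661). This call was lost when F1, F7, F9, F11, F2, F6 or F10 was left out. Of the windows of 100 bases in Acaca transcripts, 23.7% also occur in other gene models, chiefly Gm5182, the largest share among the 10, so that its level is less certain.

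Fasn, at chr11:120805846-120824547 on the minus strand, encodes fatty acid synthase, which assembles palmitate. Vehicle-treated males had 21.7 to 205 CPM (median 105) and treated males 56.5 to 454 CPM (median 193). The groups overlapped, and the log2 fold change of 0.87 ± 0.91 was smaller than its standard error (adjusted p = 0.469). Vehicle-treated females spanned 28.2 to 849 CPM (median 95.7). The treated females F4 and F8 had 54.0 and 49.4 CPM, and F2, F6 and F10 had 3474, 4328 and 2418 CPM. The difference in females was 8.50-fold, but the log2 fold change of 3.09 ± 1.0 missed the threshold (adjusted p = 0.0258), which it passed without F5, F4 or F8.

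Elovl6, Scd1 and Scd2 modify the chain. Elovl6, at chr3:129532355-129638495 on the plus strand, encodes the enzyme that lengthens palmitate to stearate. Vehicle-treated males had 1.91 to 6.41 CPM (median 5.3) and treated males 3.99 to 25.7 CPM (median 12.8), all but M10 above the vehicle range. Its log2 fold change of 1.62 ± 0.87 was the largest of the 10 in males, with an adjusted p of 0.143. In vehicle-treated females it was at 3.88 to 69.2 CPM (median 5.79), F5 being far above the next mouse at 16.5 CPM. F2, F6 and F10 of the treated females were at 231, 226 and 236 CPM, while F4 and F8 were at 4.58 and 4.87 CPM. So the 3 high mice were close together while F4 and F8 were below the vehicle median. The log2 fold change of 3.0 ± 0.88 in females did not pass (adjusted p = 0.0156) unless F5, F4 or F8 was left out.

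Scd1, at chr19:44394455-44407879 on the minus strand, encodes the main stearoyl-CoA desaturase of adipocytes, which makes oleate. Its level in males was 92.8 to 1081 CPM (median 562) with vehicle and 362 to 2424 CPM (median 1393) with corticosterone. Only 3 of 6 treated males lay above all vehicle-treated males, and the log2 fold change of 1.27 ± 0.78 was not significant (adjusted p = 0.205). Vehicle-treated females had 139 to 1947 CPM (median 330). With corticosterone, F2 reached 16510, F6 17960 and F10 15200 CPM, whereas F4 had 1771 and F8 265 CPM. F4 was thus just below the highest vehicle-treated female for Scd1, F5, but above the other vehicle-treated females, at 139 to 749 CPM. F8 was below the vehicle median. Of the counts on the 10 genes together, Scd1 took 78.0% in F4, the highest share of all mice, and 33.7% in F8. This share was 67.9% in F2, 66.5% in F6 and 73.0% in F10. It was 23.2% to 48.7% in vehicle-treated females, 13.9% to 57.1% in vehicle-treated males and 36.6% to 63.9% in treated males. With 4.09 ± 0.88 Scd1 had the largest log2 fold change in females, 17.0-fold (adjusted p = 0.00203), and the call held in each of 23 fits without 1 mouse. It was lost with females fitted alone (adjusted p = 0.0244) and with the adipocyte markers other than Plin1 as a covariate (adjusted p = 0.0242).

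Scd2, the second desaturase, lies beside Scd1 at chr19:44293674-44306864 on the plus strand. The 2 genes share few reads, since 48 windows of 100 bases occur in both, 0.879% of those of Scd2. Its level was 21.5 to 59.9 CPM (median 40.5) in vehicle-treated males and 13.0 to 53.6 CPM (median 31.8) in treated males, and 5 of 6 treated males were below the vehicle mean. This log2 difference of -0.41 ± 0.47 was not significant (adjusted p = 0.515). Vehicle-treated females had 13.9 to 30.3 CPM (median 20.9). The treated females F4 and F8 had 23.9 and 25.3 CPM, and F2, F6 and F10 had 263, 264 and 208 CPM. All 5 treated females were above the vehicle mean, and the log2 fold change of 2.84 ± 0.52 had the smallest adjusted p of the 10 (0.000512), at most 0.00219 without any 1 mouse. This call was lost with females fitted alone (adjusted p = 0.0125), with Plin1 as a covariate (adjusted p = 0.0184) and with the other adipocyte markers as a covariate.

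Dgat2, at chr7:99153658-99182719 on the minus strand, encodes an enzyme of the last step of triglyceride assembly. Vehicle-treated males had 21.0 to 138 CPM (median 76.7), and treated males had a narrow range of 95.2 to 144 CPM (median 111). Every treated male was above the vehicle mean, but only M10 exceeded the highest vehicle-treated male, and the log2 fold change was 0.62 ± 0.50 (adjusted p = 0.343). Vehicle-treated females had 18.5 to 137 CPM (median 49.5). F2, F6 and F10 of the treated females were at 550, 716 and 489 CPM, while F4 and F8 were at 88.0 and 117 CPM. As for Scd2, all 5 treated females were above the vehicle mean. The log2 fold change of 2.62 ± 0.54 was significant (adjusted p = 0.00148), also without any 1 mouse, but not with females fitted alone (adjusted p = 0.0226) or with the adipocyte markers other than Plin1 as a covariate.

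Across all genes tested, 13.2% were significantly higher and 13.1% lower with corticosterone in males, and 7.40% were higher and 6% lower in females. Against this background, none of the 10 genes passed in males in edgeR, DESeq2 or limma-voom, and none had an unadjusted p under 0.05 in edgeR, against 48.2% of all genes. In females 6 of 10 were higher and none lower. DESeq2 and limma-voom each called 8, among 1333 and 1424 of all genes that were higher, against 965 in edgeR. The median log2 fold change of the 10 genes was 0.95 in males and 2.92 in females, against -0.02 and 0.04 over all genes tested. No member separated all treated from all vehicle-treated mice in either sex, while 10.8% of all genes did so upward in males and 3.38% in females. The count in females fell to 3 of 10 without F2, without F6 or without F7, and without both M8 and F10. It rose to 9 without F4 or without F8. The number of all genes higher in females, 965 in the main fit, moved as well. It was 617 without F2, 471 without F6, 644 without F7, 596 without M8 and F10, 1272 without F4 and 1427 without F8.

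The calls in both sexes changed when the sexes did not share an estimate of the spread. With each sex fitted alone, 3 of 10 genes were significantly higher in males, Thrsp (adjusted p = 0.00172), Acly (adjusted p = 0.00479) and Elovl6 (adjusted p = 0.00539), and 14.5% of all genes were higher. In females fitted alone, none of the 10 passed, the smallest adjusted p being 0.0125 for Scd2, and 1.95% of all genes were higher. Fold changes were nearly the same in both models, with 1.44 for Thrsp in males and 4.05 for Scd1 in females on the log2 scale.

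Plin1 lies at chr7:79720218-79732903 on the minus strand. Its level was 1.96 to 56.7 CPM (median 25.3) in vehicle-treated males and 6.64 to 62.9 CPM (median 21.2) in treated males, a log2 difference of -0.08 ± 0.89 (adjusted p = 0.948). In vehicle-treated females it was 3.84 to 83.0 CPM (median 27.2), with 3 mice at 3.84 to 4.97 CPM and 3 at 49.4 to 83.0 CPM. With corticosterone, F2 reached 277, F6 543 and F10 278 CPM, whereas F4 had 70.2 and F8 2.85 CPM. F8 was the female with the least Plin1, and F4 was in the upper part of the vehicle range. The log2 fold change in females of 2.67 ± 0.95 did not pass (adjusted p = 0.0423). Among the 12 vehicle-treated mice of both sexes, Plin1 went with Scd1 (Pearson r = 0.95, Spearman rho = 0.92) and Fasn (r = 0.93, rho = 0.97), and least with Scd2 (r = 0.09), Me1 (r = 0.18) and Srebf1 (r = 0.33). Without M7 and F11, the 2 mice farthest from the median of Plin1, r was 0.91 for Scd1, 0.91 for Fasn, 0.42 for Scd2, 0.34 for Me1 and 0.57 for Srebf1. Among the 6 treated males, r with Plin1 was 0.97 for Thrsp and -0.07 for Dgat2. These values are descriptions over mice that share library scaling.

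**Figure D2:**
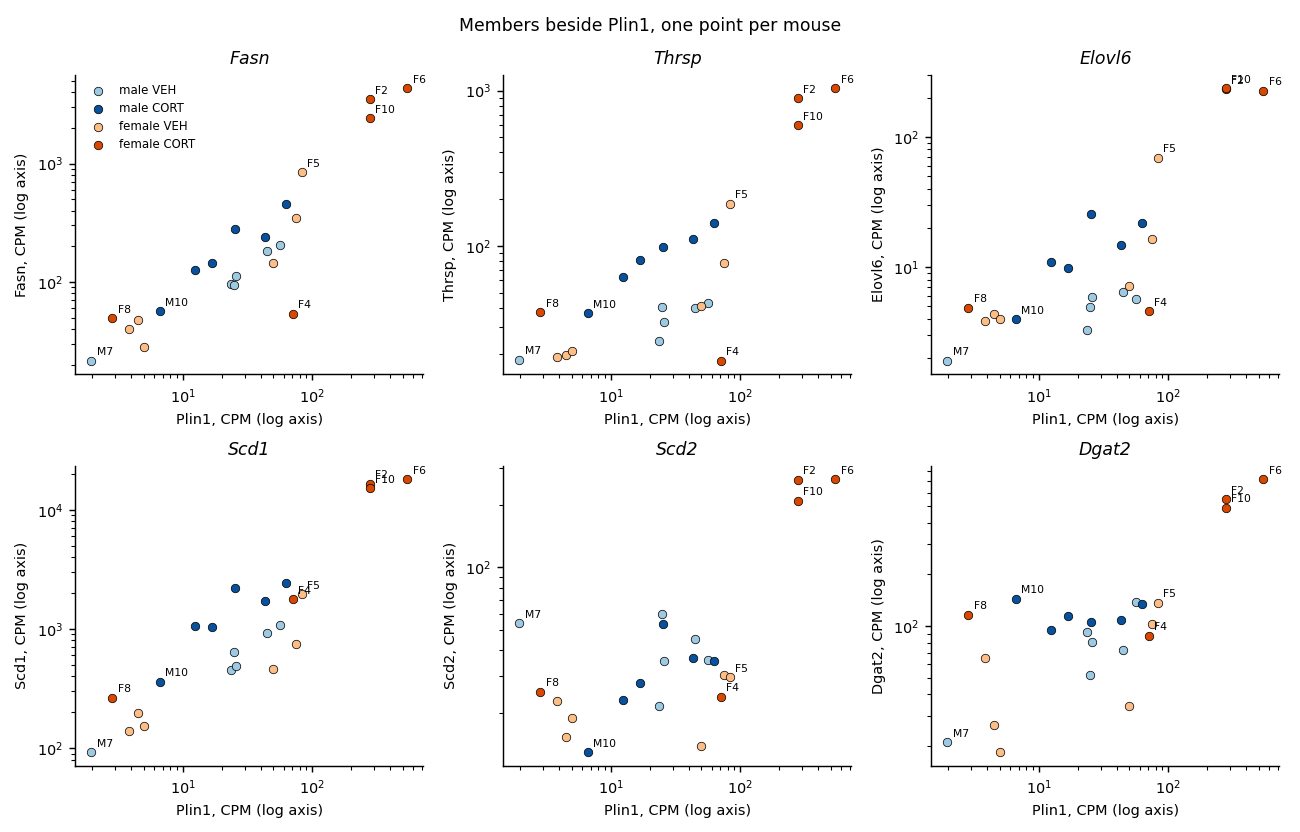
Level of 6 members against the level of Plin1, both in CPM on log axes, with 1 point per mouse coloured by group. Fasn, Thrsp and Elovl6 rise with Plin1 except in F4, which has 70.2 CPM of Plin1 and only 54.0 CPM of Fasn, whereas Scd2 had r = 0.09 with Plin1 among the 12 vehicle-treated mice.

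The responses were also fitted with the log2 level of Plin1 of each mouse as a covariate. In males, Scd1 became significant with a log2 fold change of 1.36 ± 0.28 (adjusted p = 0.000563), and no other member passed, among 14.1% of all genes that were higher. Its estimate had barely moved from 1.27, while its standard error fell from 0.78 to 0.28. In females, Scd1 (1.69 ± 0.33, adjusted p = 0.00161) and Dgat2 (1.66 ± 0.41, adjusted p = 0.00932) passed, among 3.18% of all genes that were higher. Scd2 was at 1.94 ± 0.54 (adjusted p = 0.0184) and the other members at 0.38 to 1.49. The median over the 10 genes was then 0.86 in males and 1.2 in females. With the mean log2 level of the other 10 adipocyte markers, without Plin1, as the covariate, Scd1 passed in males (1.35, adjusted p = 0.000502), and no member passed in females, where Scd1 was at 1.25 (adjusted p = 0.0242) and Fasn at 0.13 (adjusted p = 0.892). Of all genes, 1842 were higher in males and 284 in females with this covariate. A covariate that itself moves with treatment can take up part of a response that both share.

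**Figure D3:**
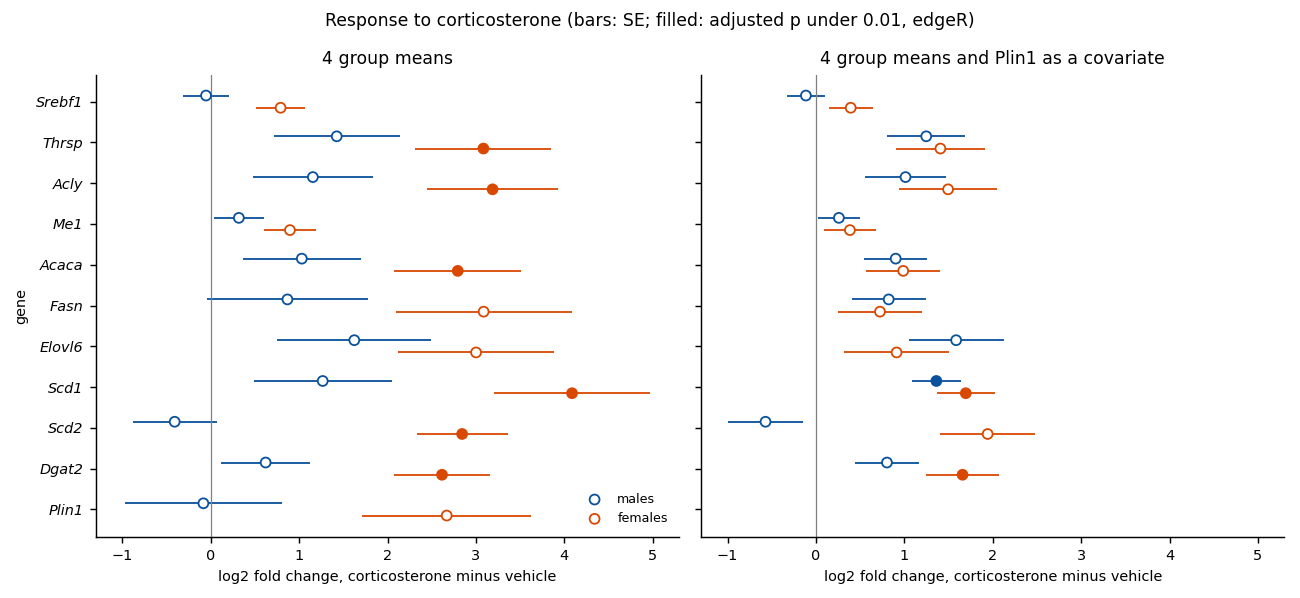
Log2 fold change of corticosterone against vehicle for the 10 members and Plin1 in males and females, with bars for the SE and filled points for an adjusted p under 0.01 in edgeR, from 4 group means (left) and with Plin1 as a covariate (right, where Plin1 itself is left out). Female values drop with the covariate, for Scd1 from 4.09 to 1.69, while male values stay close to where they were.

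The level of each member divided by that of Plin1 in the same mouse showed the 2 low treated females apart from each other. The ratio of Scd1 to Plin1 was 19.0 to 47.3 (median 19.9) in vehicle-treated males, where M7 was highest, and 38.5 to 86.7 (median 58.1) in treated males, 4 of which lay above all vehicle-treated males. In females it was 9.42 to 43.6 (median 27.3) with vehicle and 25.2 to 92.9 (median 54.7) with corticosterone. The 3 of 5 above the vehicle range were F2, F8 and F10, while F6 was within it at 33.1. For Fasn the ratio was 3.61 to 11.1 in vehicle-treated males and 5.62 to 10.9 in treated males. It was 2.91 to 10.6 in vehicle-treated females and 0.769 to 17.3 in treated females. F4 had the lowest ratio of all 23 mice for Thrsp, Acly, Acaca, Fasn and Elovl6, yet not for Scd1, where it ranked 8 from the bottom. F8, with little Plin1, had the highest ratio of the treated females for all 10 genes. The vehicle-treated male with the least Plin1, M7, likewise had the highest ratio of the vehicle-treated males for each member, so that a ratio to a low Plin1 level is uncertain.

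**Figure D4:**
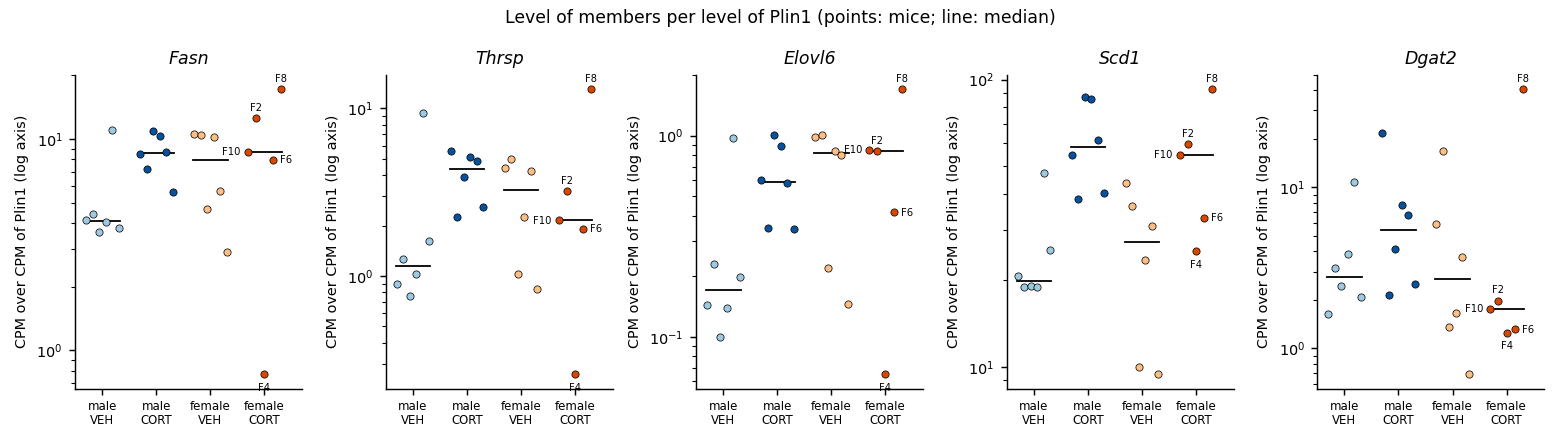
CPM of 5 members divided by the CPM of Plin1 in the same mouse, on log axes, with 1 point per mouse and a line at the group median. Treated males sit above most vehicle-treated males for Scd1, with medians of 58.1 and 19.9, and F4 is lowest for Fasn, Thrsp and Elovl6.

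A difference between the male and the female response was tested with an interaction term, for which 0.690% of all genes passed. No member passed in edgeR, while 5 of the 10, Srebf1, Acly, Scd1, Scd2 and Dgat2, had an unadjusted p under 0.05, against 32.1% of all genes. Scd2 was closest, with a male response lower than the female response by a log2 difference of -3.25 ± 0.70 (adjusted p = 0.0114), and it passed in DESeq2 (adjusted p = 0.000498), in limma-voom (adjusted p = 0.00192) and without F3, F4 or F8. Scd2 was below the vehicle mean in 5 of 6 treated males and above it in 5 of 5 treated females. For Scd1 the interaction was -2.82 ± 1.13 (adjusted p = 0.0922), and for Dgat2 -2.0 ± 0.73 (adjusted p = 0.07). With Plin1 as a covariate the interaction of Scd1 was -0.33 ± 0.43 and that of Scd2 -2.51 ± 0.65 (adjusted p = 0.0396).

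With vehicle, no member differed significantly between males and females in edgeR, DESeq2 or limma-voom, against 0.958% of all genes in edgeR, and 2 of the 10, Srebf1 and Elovl6, had an unadjusted p under 0.05, against 13.2% of all genes. For Elovl6 the log2 difference of males minus females was -1.90 ± 0.87 (adjusted p = 0.340), and -0.62 without F5. Srebf1 was higher in all 6 vehicle-treated males than the female mean (log2 difference 0.68 ± 0.27, adjusted p = 0.229), and Scd2 was above all vehicle-treated females in 5 of 6 males (0.94 ± 0.48, adjusted p = 0.417). With corticosterone, 4 members were significantly lower in males than in females, against 14% of all genes that were lower in males. They were Scd2 (log2 difference -2.31 ± 0.51, adjusted p = 0.00149), Acaca (-2.68 ± 0.71, adjusted p = 0.00572), Elovl6 (-3.28 ± 0.89, adjusted p = 0.00670) and Acly (-2.60 ± 0.73, adjusted p = 0.00772). Scd1 was at -2.81 ± 0.84 (adjusted p = 0.0118). These calls fell to 0 with Plin1 as a covariate and to 0 with the mouse number as a replicate block, and only 1 was left without M4, M6, M8, M10, F2, F6 or F10 in turn, whereas 7 passed without F5 and 8 without F4 or F8. The number of all genes lower in treated males, 1828 in the main fit, moved as well. It was 878 with Plin1 as a covariate, 1119 with the block and 1001 to 1632 in the fits that left 1 call. Without F5 it was 1771, without F4 1960 and without F8 2308. If the sexes were processed at different times, that cannot be told apart from sex.

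Among 14 other regulators of the pathway, 3 were higher and none lower in each sex. The share of all genes that were higher was 13.2% in males and 7.40% in females. Nr1h3, which encodes the liver X receptor alpha that activates Srebf1, rose in both, with a log2 fold change of 1.45 ± 0.13 in males (adjusted p = 6.29e-08) and 1.06 ± 0.13 in females (adjusted p = 1.56e-05). Its treated females had 33.2 CPM in F4 and 42.8 CPM in F8, against a vehicle mean of 22.1 CPM, so that both were above it although most members were low in them. Rxra, its partner receptor (0.56 ± 0.11, adjusted p = 0.000354), and Usf2 (0.41 ± 0.10, adjusted p = 0.00226) rose in males. In females, Insig1, a SREBP target that retains the SREBP complex, was at 1.95 ± 0.40 (adjusted p = 0.00122) and Mid1ip1, the paralog of Thrsp, at 1.11 ± 0.28 (adjusted p = 0.00540). Insig1 followed the members, with 124 CPM in F2, 140 in F6 and 141 in F10 but 24.0 in F4 and 18.5 in F8. The call of Mid1ip1 was lost without F1, F7, F9, F2, F6 or F10. With Plin1 as a covariate, Nr1h3 alone of the 3 passed in females, and Insig1 (adjusted p = 0.0351) and Mid1ip1 (adjusted p = 0.0325) did not. The median of the list was 0.11 in males and 0.31 in females.

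Of 12 genes that supply carbon and NADPH, 1 was higher in males and 5 in females, and none was lower. Of all genes, 13.2% were higher in males, so that 1 of 12 is no larger a share, and 7.40% were higher in females. Acacb, the acetyl-CoA carboxylase at mitochondria that restrains fatty acid oxidation, rose in both sexes, by 0.70 ± 0.10 in males (adjusted p = 1.29e-05) and 0.46 ± 0.10 in females (adjusted p = 0.00284). Acss2, which makes acetyl-CoA from acetate, rose in females by 2.22 ± 0.40 (adjusted p = 0.000443). G6pdx (3.06 ± 0.58, adjusted p = 0.000699) and Pgd (2.17 ± 0.45, adjusted p = 0.00154), the NADPH-forming enzymes of the pentose phosphate pathway, and cytosolic Idh1 (1.10 ± 0.24, adjusted p = 0.00203) were also higher in females. Without F6, the calls of Acacb in females and of Idh1 were lost. With Plin1 as a covariate, 2 of the 5 passed in females, Acss2 (adjusted p = 0.00633) and G6pdx (adjusted p = 0.00376), and in males 2 were higher, Acacb and Idh1, and 1, the mitochondrial malic enzyme Me3, was lower. The medians were 0.61 and 0.85.

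For elongation and desaturation 11 of 17 genes were tested. Of these, 1 was higher and 2 lower in males, against 13.2% and 13.1% of all genes. In males, Tecr, an enoyl-CoA reductase of the elongation cycle, rose (1.67 ± 0.21, adjusted p = 2.56e-06), while the dehydratases Hacd1, a muscle form (-1.40 ± 0.16, adjusted p = 7.41e-07), and Hacd4 (-1.39 ± 0.22, adjusted p = 4.98e-05) fell. In females, 4 were higher and 1 lower, against 7.40% and 6% of all genes. Tecr rose there too (1.05 ± 0.21, adjusted p = 0.00114) and Hacd1 fell (-1.18 ± 0.16, adjusted p = 4.39e-05), each in all 5 treated mice relative to the vehicle mean. Fads3 (3.4 ± 0.53, adjusted p = 0.000129), a desaturase of the Fads cluster, was higher at 95.7 CPM in F2, 172 in F6 and 106 in F10, and was at 29.3 CPM in F4 and 8.61 CPM in F8. With Plin1 as a covariate, 3 were higher in females, Fads3, Tecr and Hacd2, and Hacd1 was lower. The medians were 0.04 in males and 1.05 in females.

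Triglyceride assembly gave 12 tested genes of 15. In each sex, 1 of these was higher and 2 were lower. Of all genes, 13.2% were higher and 13.1% lower in males, and 7.40% were higher and 6% lower in females. Gpam, which encodes the first acyltransferase of the route, fell in males (-0.91 ± 0.15, adjusted p = 6.25e-05) and in females (-0.66 ± 0.16, adjusted p = 0.00398). In females this was opposite to Dgat2, whose difference in males was not significant (adjusted p = 0.343). In males Agpat4 was also lower (-0.85 ± 0.22, adjusted p = 0.00390) and Agpat1 higher (0.43 ± 0.10, adjusted p = 0.00154). In females Agpat5 was lower (-0.44 ± 0.10, adjusted p = 0.00411) and Agpat2, the acyltransferase of adipocytes, higher (2.67 ± 0.71, adjusted p = 0.00860). The call of Agpat2 was lost in 18 of the 23 fits without 1 mouse, that of Agpat5 without F7, F9, F2 or F6, that of Agpat4 without M1, M11 or M12, and that of Gpam in females without F2 or F6. With Plin1 as a covariate, none of the 3 passed in females. Medians were 0.11 and 0.37.

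As a comparison, 10 of 12 SREBP targets of the cholesterol branch were tested. None passed in males, against 13.2% of all genes higher and 13.1% lower, while 7 were higher in females, against 7.40%. The medians were 0.22 and 1.02. Among those higher in females were Lss (2.30 ± 0.38, adjusted p = 0.000226) and Cyp51 (1.82 ± 0.34, adjusted p = 0.000652), both enzymes of sterol synthesis. As for the members, Lss was at 34.2 CPM in F2, 34.6 in F6 and 27.7 in F10, but at 5.49 CPM in F4 and 5.27 in F8, against a vehicle mean of 4.36 CPM. All 7 calls held in each of the 23 fits without 1 mouse, and with Plin1 as a covariate 2 of the list passed, among them Lss (adjusted p = 0.00772) but not Cyp51 (adjusted p = 0.0199). With females fitted alone, none of these 7 passed, and of the other calls in females above, those of Nr1h3, Tecr, Hacd1, Fads3 and Gpam did.

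**Figure D5:**
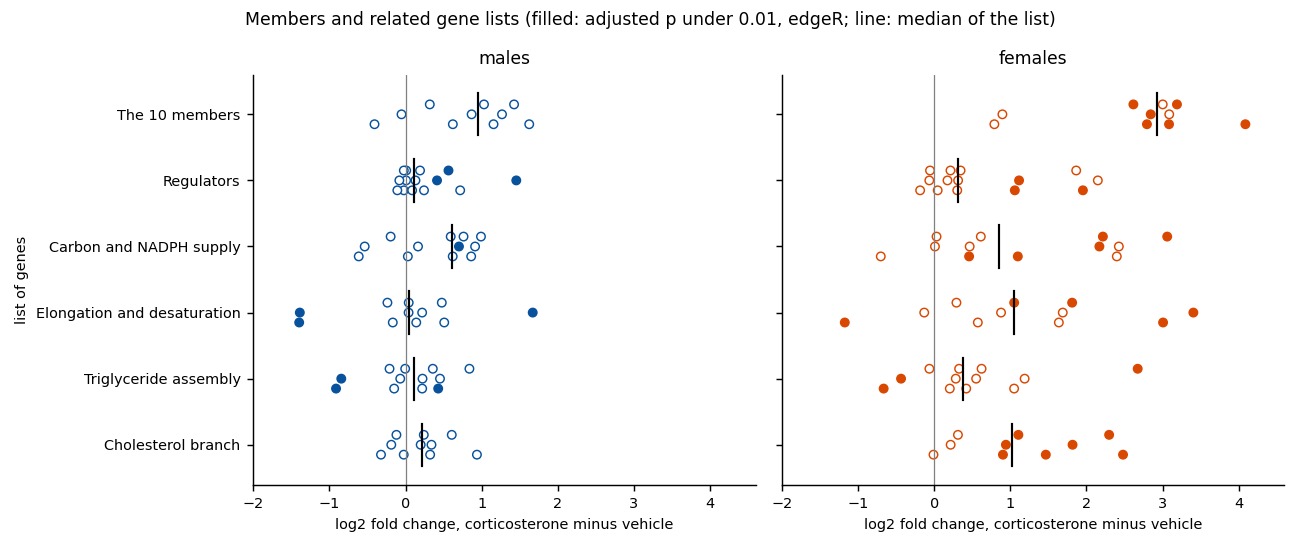
Log2 fold change of corticosterone against vehicle for the 10 members and the tested genes of 5 related lists, with 1 point per gene, filled where the adjusted p was under 0.01 in edgeR, and a line at the median of the list. The members have the largest medians of the lists shown, 0.95 in males and 2.92 in females.

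The genes whose levels were most like the members were ranked by Pearson correlation of log2 CPM with the mean z score of the 10 genes over 23 mice. The closest was Tkt, a transketolase of the pentose phosphate pathway, with r = 0.98 (rho = 0.98). It was followed by Pygl (r = 0.97), the liver form of glycogen phosphorylase, Slc25a1 (r = 0.97), the citrate carrier of mitochondria, Pgd (r = 0.97), Kcnj15 (r = 0.97), Agpat2 (r = 0.96), Acat2, Slc25a10, Hacd2 and Adap1 (each r = 0.96). Without F6 and F2, the mice farthest from the median, r was 0.91 to 0.96 for the 10. Single members had as their closest gene Tkt for Fasn (r = 0.99) and Acaca (r = 0.99), Acaca for Elovl6 (r = 0.98), each other for Thrsp and Acly (r = 0.98), Mrap for Scd1 (r = 0.98), Abhd15 for Dgat2 (r = 0.95), Hvcn1 for Scd2 (r = 0.93), Ddhd2 for Me1 (r = 0.91) and Ltbp3 for Srebf1 (r = 0.82). The lowest of these was that of Srebf1. Among the 12 vehicle-treated mice alone, Acaca and Fasn had r = 0.97 and Thrsp and Elovl6 r = 0.95, whereas Scd2 had r = -0.05 with Acaca and 0.09 with Fasn. These correlations are descriptions, since the mice share library scaling and the high values of F2, F6 and F10.

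Markers of other cell types moved with treatment as follows. Of the 11 adipocyte markers, Lep (log2 fold change 6.79 ± 1.15, adjusted p = 0.000284), Tshr (4.22 ± 0.81, adjusted p = 0.000824) and Plin4 (1.0 ± 0.16, adjusted p = 0.000173) were higher in females, and Plin4 in males (1.33 ± 0.16, adjusted p = 1.37e-06), where each treated mouse was above all vehicle-treated mice. The rest of the 11 did not pass in females, where Cfd alone had a negative log2 fold change (-0.77, adjusted p = 0.566). Adipoq was at 2.08 (adjusted p = 0.0846), Retn at 2.18 (adjusted p = 0.0713) and Cidea at 0.21 (adjusted p = 0.904). In males the 10 markers other than Plin4 did not pass. Among these were Cfd with -2.39 (adjusted p = 0.0392), Adrb3 with -1.73 (adjusted p = 0.163), Adipoq with -0.35 (adjusted p = 0.767) and Lep with 1.37 (adjusted p = 0.232). None of the 10 hepatocyte markers passed in either sex. All 3 blood markers were higher in both sexes. The number of read pairs set aside for low alignment quality was 3496 in F2, 4618 in F6 and 4015 in F10, and 1219 to 1856 in the other 20 mice. The part of these in the levels of the members was not tested, apart from the adipocyte markers above and the hepatocyte markers. With the hepatocyte markers as a covariate, 4 of the 10 genes passed in females, among 721 of all 13049 genes that were higher.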

How the data were processed

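Messenger RNA of quadriceps from 23 mice was sequenced by the authors as stranded libraries on a DNBseq instrument. Per the labels and the methods of the study, reads were aligned to mm10 with STAR 2.7.3a and counted per gene with HTSeq 0.12.4 in reverse-stranded mode, and the deposited table holds raw counts for 55573 gene IDs beside 5 summary entries, which were left out of library sizes. Read pairs not assigned to a gene were 10.7% to 15.3% of all in each library. Symbols and coordinates came from the GENCODE annotation of GRCm38, which held 55480 of the IDs.

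Genes with over 20 normalised counts in at least 4 mice of 1 group were kept, 13049 in all. Groups were taken from the labels. A quasi-likelihood model with 4 group means and TMM factors (0.832 to 1.21) was fitted in edgeR 4.0.16 (R 4.3.3), and p-values were adjusted over all genes tested by the Benjamini-Hochberg method with a threshold of 0.01. CPM values in the text are scaled with the same factors. A count of 3 corresponds to at most 0.166 CPM. Comparisons were corticosterone against vehicle within each sex, the interaction, and males against females within each treatment. DESeq2 1.42.0, limma-voom (limma 3.58.1), 2 other filters, median-of-ratios scaling, each sex fitted alone, covariates from Plin1 and from marker lists, a replicate block and leaving out mice were tried as alternatives. No library pair of a group agreed within counting noise (lowest chi-square per degree of freedom 15.2).

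The 10 genes, the related lists and the alternatives were chosen with earlier results of these data known. Named genes are the members, Plin1, the genes with the smallest adjusted p among those called in each list and sex, the 10 genes most like the members and the gene most like each member. The values of 1 gene under this rule are not reported here. The share of a member's transcript windows of 100 bases found in another gene model was computed from the annotation.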

Additional observations from a re-analysis of the deposited data

Results flagged for a closer look

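Values of the 10 members and Plin1 in the 4 groups, 44 sets in all, were examined in CPM. The gap of the highest or lowest mouse to the nearest other was compared with Dixon's critical value. Chance exceeds this value in about 1 in 20 sets of normally distributed values, a rate that need not hold for CPM. No such comparison was made on the log scale. The critical value was exceeded in 4 sets, in each by F5, the highest of the 6 vehicle-treated females. Its level was 186.6 CPM for Thrsp (19.1 to 77.3 CPM in the other vehicle-treated females), 177.2 CPM for Acly (21.6 to 46.8 CPM), 69.18 CPM for Elovl6 (3.88 to 16.5 CPM) and 1947 CPM for Scd1 (139 to 749 CPM). These 4 sets share 1 mouse and are not independent. F5 also had the highest summed adipocyte markers of the vehicle-treated females, 2948 CPM, and 57.1 CPM of Ucp1, and their part in these levels was not tested. Without F5 the female log2 fold changes were 3.85 for Thrsp, 4.08 for Acly, 4.29 for Elovl6 and 4.92 for Scd1.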

How the results depend on the processing

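The number of the 10 genes called in males was 0 and became 3 with each sex fitted alone, 1 with Plin1 and 1 with the adipocyte markers as a covariate. In females it was 6 and became 0 with each sex fitted alone, 2 with Plin1 and 0 with the adipocyte markers as a covariate, and 3 without M8 and F10. Leaving out 1 mouse gave 3 to 9 in females. For the interaction it was 0 and became 1 (Scd2) with DESeq2 and 1 with limma-voom, and 0 to 1 without 1 mouse. Between the sexes with corticosterone it was 4 and became 8 with DESeq2, 2 with no filter, 0 with Plin1 and 0 with the adipocyte markers as a covariate, 1 without M8 and F10, and 1 to 8 without 1 mouse. Between the sexes with vehicle it was 0 under all alternatives run. Of all genes, 965 were higher in females in the main fit, 254 with each sex fitted alone and 596 without M8 and F10. With Plin1 they were 415, and with the adipocyte markers 284. Lower in treated males than in treated females were 1828, against 2116 with DESeq2, 1300 with no filter and 740 without M8 and F10. With Plin1 they were 878, and with the adipocyte markers 645. For the interaction, 48 were higher and 42 lower, against 422 and 474 with DESeq2. The labels do not say whether equal mouse numbers mark a shared litter or day. The correlation of same-numbered mice was -0.38 to 0.48, positive in 8 of 11 pairs, and 4 of 11 were closest to their own number. With the replicate block 0 of the 10 genes were called between the sexes with corticosterone, with vehicle or for the interaction.

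Signs turned as follows. With the adipocyte markers as a covariate, the log2 fold change of Plin1 in females was -0.50, the interaction was 0.24 for Thrsp, 0.33 for Acaca, 0.68 for Fasn, 1.09 for Elovl6, 0.10 for Scd1 and 0.48 for Plin1, and the difference between the sexes with corticosterone was 0.29 for Srebf1, 0.0544 for Scd1 and 0.30 for Plin1. With Plin1 as a covariate, the interaction was 0.10 for Fasn and 0.67 for Elovl6, and the difference with corticosterone was 0.21 for Srebf1. Without 1 mouse, the male log2 fold change ranged from -0.16 to 0.087 for Srebf1 and from -0.50 to 0.21 for Plin1, and the difference with corticosterone from -0.33 to 0.14 for Srebf1. The causes were not tested. Of the other log2 values under the alternatives, 2402 kept direction and side of the threshold, 172 lost the call and 41 gained it. Elovl6 was the least abundant member in the vehicle-treated groups, where its level rested on the fewest counts of the 10.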
